A study of Mus musculus with 3 samples.

Results

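Coch Dkk2 fibroblasts are single cells of mouse back skin that carried transcripts of the stromal gene Pdgfra together with Coch and Dkk2. They were chosen from raw counts of unique molecular identifiers (UMIs, which count captured RNA molecules): at least 1 UMI of Pdgfra, at least 3 of Coch and at least 1 of Dkk2, with at most 1 of the leukocyte gene Ptprc and at most 1 of Dpp4. Of 23384 cells that passed the quality limits, 102 met this rule. The 12 members of the wound bed at post-wounding day 7 and the 90 of non-lesional skin are described here against the other cells with a Pdgfra UMI of their own library. All animals were male C57BL/6 mice aged 7 to 9 weeks with no further allele or agent in the labels. Full-thickness wounds of 1.0 × 0.5 cm were made on both sides of the dorsal skin during telogen, the resting phase of the hair cycle, and dorsal skin away from a lesion was the comparison. Each of non-lesional skin, day 2 and day 7 gave 1 library, so differences have no replicate check and no test was possible. The labels do not say whether a library pooled tissue of several mice.

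Dermal fibroblasts are not uniform. Cells of the interstitium, the papillary dermis, the fascia and the hair follicle's dermal papilla and sheath differ in the matrix that they secrete and in the WNT, hedgehog and BMP signals that they send and receive. Coch encodes cochlin, a secreted matrix protein best known from the inner ear. Dkk2 encodes a secreted WNT antagonist of the Dickkopf family, Slit2 a secreted guidance ligand and Robo2 a receptor for Slit proteins, Enpp2 autotaxin, the enzyme that makes lysophosphatidic acid, and Lepr the leptin receptor.

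Coch lies at chr12:51593341-51605771 on the plus strand of GRCm38 and Dkk2 at chr3:132085292-132180304 on the plus strand, by the GENCODE M21 annotation. Their promoter windows, from 250 bases before to 50 bases after the RefSeq start on GRCm38.p6 (chr12:51593091-51593390 and chr3:132085042-132085341), are shown because the transcripts made from them decided which cells are members. Letters of the TATA box (TATAAA, or TTTATA on the other strand) are in capitals.
Coch: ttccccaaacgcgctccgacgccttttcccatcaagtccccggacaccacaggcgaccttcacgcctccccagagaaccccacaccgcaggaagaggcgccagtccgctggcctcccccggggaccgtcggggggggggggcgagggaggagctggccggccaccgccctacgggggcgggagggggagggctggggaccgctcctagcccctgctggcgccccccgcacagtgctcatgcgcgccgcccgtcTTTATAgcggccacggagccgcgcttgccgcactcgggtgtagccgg
Dkk2: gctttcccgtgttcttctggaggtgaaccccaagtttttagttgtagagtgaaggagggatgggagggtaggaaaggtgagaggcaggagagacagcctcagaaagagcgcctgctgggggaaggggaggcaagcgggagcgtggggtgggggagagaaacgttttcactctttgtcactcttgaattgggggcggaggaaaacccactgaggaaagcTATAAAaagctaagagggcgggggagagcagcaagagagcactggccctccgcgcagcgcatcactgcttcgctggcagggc
Each window held these letters once, as did 13.6% of the 32851 windows of the RefSeq table at least once. The core of the site bound by the WNT effectors TCF and LEF (TCAAAG, or CTTTGA on the other strand) was not found in either window and was found in 16.0% of all windows. These matches are descriptions of the letters only.

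The libraries held 123088680 UMIs in non-lesional skin, 138046172 at day 2 and 102345327 at day 7. Cells with at least 200 detected genes and at most 10% mitochondrial UMIs were kept. The libraries shared 14 to 24 barcodes in pairs, and no member was among them. Median depth differed: day 7 members had 14825 UMIs, against 27312 in other Pdgfra cells of that library, and non-lesional members had 7230, against 10137. Since the rule sets absolute UMI minimums and maximums, depth and membership cannot be told apart for a cell near a limit.

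Members made up 1.76% of 5115 Pdgfra cells in non-lesional skin (exact 95% interval 1.42 to 2.16%). In the day 2 wound bed 0 of 4069 Pdgfra cells were members, which allows a share of up to 0.0737% (3 cells of 4069; the exact upper limit is 0.0906%). In the day 7 wound bed 12 of 2532 were members, or 0.474% (0.245 to 0.826%). These intervals, and all others given here, cover counting error only. Day 2 cells were the deepest, with a median of 29078 UMIs, and 610 of them passed every limit except that on Coch. At that step 604 cells of non-lesional skin included 171 with a Coch UMI, the 610 of day 2 included 2, and 206 of day 7 included 41. At these absolute limits, the step that separated day 2 was therefore Coch and not Dkk2. Because day 2 cells were deeper, similar counts at the Dkk2 limit do not show a similar Dkk2 level. Per UMI, Dkk2 was also lower in the largest clusters of day 2 cells than in other non-lesional cells (levels below).

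**Figure D1:**
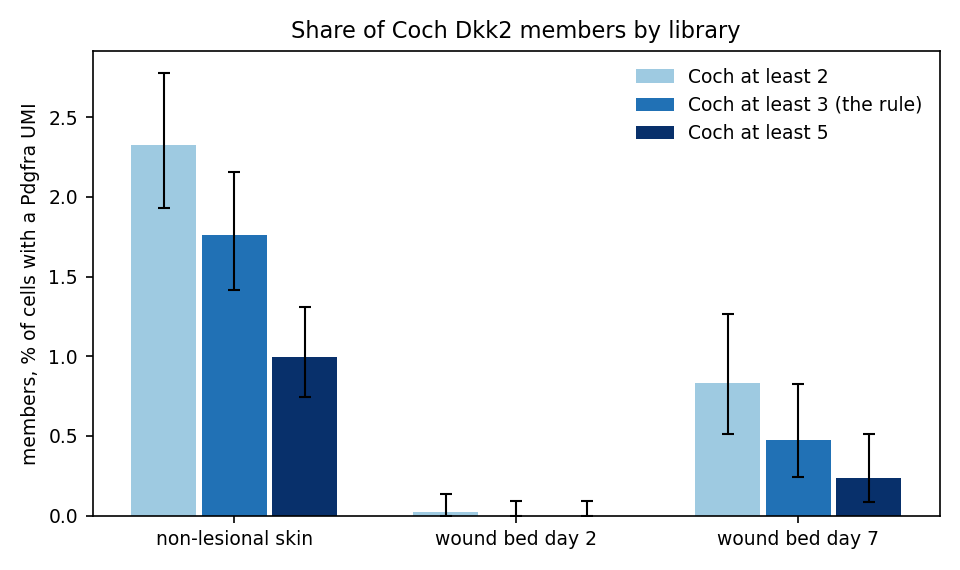
Share of Pdgfra cells that met the rule, in percent on the vertical axis, by library on the horizontal axis and for a minimum of 2, 3 or 5 Coch UMIs, with exact 95% binomial intervals of counting error. At the minimum of 3 the shares were 1.76% in non-lesional skin, 0% at day 2 and 0.474% at day 7.

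The limit on Coch cut through a continuum. In non-lesional skin 52 cells that met every other limit had 1 Coch UMI, 29 had 2, 21 had 3, 26 had 4 or 5 and 43 had more than 5. At day 7 the numbers were 20, 9, 2, 4 and 6. Just inside the limit, the 21 non-lesional cells with 3 Coch UMIs held 1186 UMIs of Enpp2 per 1000000 UMIs (CPM), and just outside, the 29 cells with 2 held 1085. Crabp1 had 3464 CPM just inside and 1540 just outside, and Slit2 226 and 236. The other limits also removed Coch-bearing cells: 145 non-lesional Pdgfra cells had at least 3 Coch UMIs and at most 1 of Ptprc, of which 12 had no Dkk2 UMI and 43 had more than 1 of Dpp4.

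Coch itself was very unevenly spread over the non-lesional members, from 3 to 211 UMIs with a median of 5. The 5 cells with most held 42.2% of the 1529 Coch UMIs and the 10 with most held 61.6%. At day 7 the 12 members had 3 to 11 Coch UMIs with a median of 5. Few cells that should lack both genes carried either: of leukocytes (at least 3 Ptprc UMIs and none of Pdgfra) 2 of 656 cells at day 7 and 1 of 375 in non-lesional skin had a Coch UMI, at median depths of 4760 and 4359 UMIs. Dkk2 was seen in 1.07% of these leukocytes at day 7 and 0.533% in non-lesional skin. Among other Pdgfra cells, 3.97% at day 7 and 4.38% in non-lesional skin had a Coch UMI.

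When all Pdgfra cells were grouped by their expression of genes other than those of the rule, the members did not form 1 population. Of the 90 non-lesional members, 64 (71.1%, 60.6 to 80.2%) lay in a cluster of 396 cells led by Coch, Cilp, Fam180a and Slit2, nearly all from non-lesional skin (393 cells). Another 17 lay in a cluster of 125 cells led by Slc26a7, Prlr and Pappa2, all from non-lesional skin. Of the 12 day 7 members, 9 (75%, 42.8 to 94.5%) lay in a cluster of 186 cells led by Sox18, Wif1, Gldn and Corin, all from day 7. The 12 that remain lay in a Lepr-led cluster (2 at day 7 and 5 in non-lesional skin), the Coch-led cluster (1 at day 7), a keratin-led cluster (3 in non-lesional skin) and a Myoc-led cluster (1 in non-lesional skin). Of the 20 nearest neighbours of a member, 12.9% were members at day 7 and 31.2% in non-lesional skin, against 0.871% of all cells clustered. That last share covers all 3 libraries. Members made up 4.84% of the Sox18-led, 16.4% of the Coch-led and 13.6% of the Slc26a7-led cluster. Leading genes were ranked over all genes, those of the rule included, and over all cells of a cluster. Members chosen for Coch thus counted towards its lead, with 1046 Coch UMIs in the 64, against 362 in the 329 other non-lesional cells. Among non-lesional non-members, 78.7% of Slc26a7-led and 23.1% of Coch-led cells had a Coch UMI, at 74.2 and 133 CPM. A Dkk2 UMI was seen in 99.1% and 58.4% of them, at 744 and 277 CPM. Their depth was unlike, with medians of 39709 and 7591 UMIs. Which set the label of a Coch and Dkk2 fibroblast fitted best was therefore not decided. The sets are called by the leading genes of their clusters.

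Depth differed between these sets. The 9 Sox18-led members at day 7 had a median of 15469 UMIs, the 64 Coch-led members of non-lesional skin 6106 (1482 to 17662) and the 17 Slc26a7-led members 37779 (18998 to 67595). In consequence 85.4% of the members' summed UMIs at day 7 came from the 9 Sox18-led cells, and 54.8% of those in non-lesional skin came from the 17 Slc26a7-led cells. When every cell was thinned at random to 5000 UMIs, 32 of the 48 Coch-led members with enough UMIs still met the rule, and 0 of 17 Slc26a7-led and 0 of 9 Sox18-led members did. Values of the sets are therefore given beside the sums over all members.

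**Figure D2:**
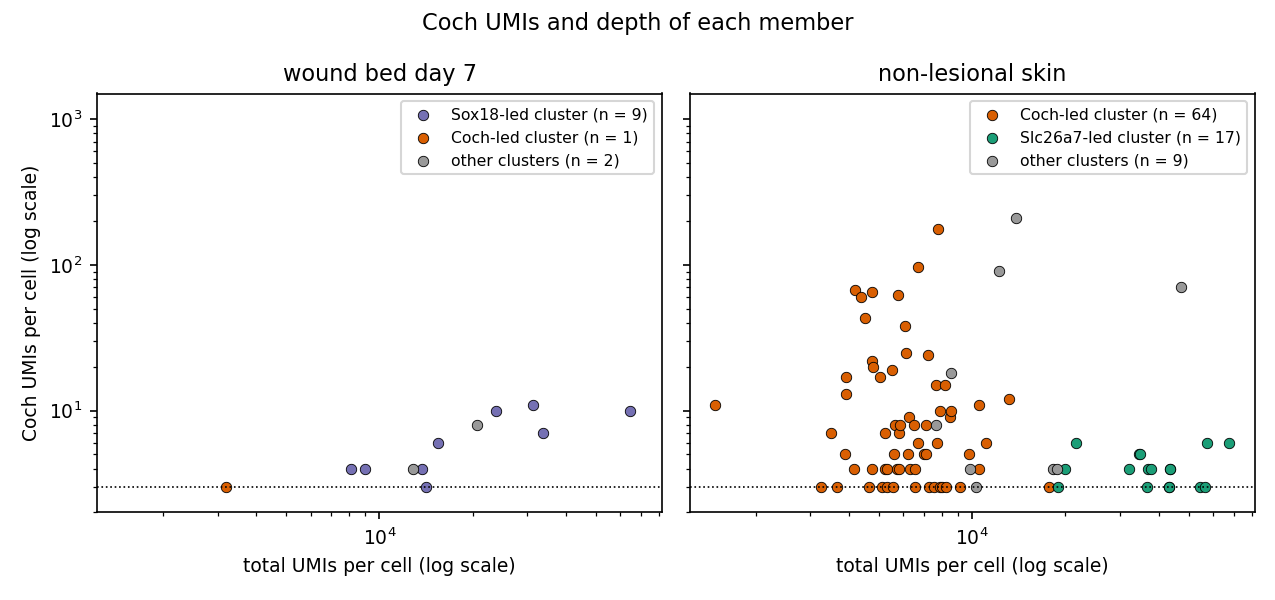
Coch UMIs of each member on the vertical axis against its total UMIs on the horizontal axis, both logarithmic, for the 12 day 7 members on the left and the 90 non-lesional members on the right, coloured by the leading gene of the cell's cluster. The dotted line marks the minimum of 3 Coch UMIs; the 17 Slc26a7-led cells lie at 18998 UMIs or more, close to the line, and the highest cell reached 211 Coch UMIs.

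The levels of the genes that defined the cells differed between the sets. Of these, Robo2, Enpp2, Slit2 and Lepr are not used by the rule but were picked as markers with these data in view. Coch stood at 276 CPM in the Sox18-led members (Poisson 95% interval 209.9 to 356, 59 UMIs), 2513 CPM in the Coch-led members (2363 to 2670, 1046 UMIs) and 103 CPM in the Slc26a7-led members (79.9 to 129.5, 70 UMIs). The other Pdgfra cells had 3.15 CPM at day 7, 0.146 at day 2 and 14.4 in non-lesional skin. Among these sets Coch was highest in the Coch-led members. It was higher still in the 3 keratin-led members (4289 CPM, 299 UMIs) and the 1 Myoc-led member (7450 CPM, 91 UMIs). All of these levels follow from the choice of cells. Dkk2 was at 117 CPM in the Sox18-led, 754 in the Coch-led and 681 in the Slc26a7-led members, against 8.06 in other cells at day 7 and 95.9 in other non-lesional cells.

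Enpp2 (chr15:54838901-54952892, minus strand) was found in most members of both libraries, with a UMI in 83.3% of day 7 members and 87.8% of non-lesional members. In leukocytes the share was 1.98% at day 7 and 1.87% in non-lesional skin. Other Pdgfra cells had it in 30.8% of cells at day 7 and 30.5% in non-lesional skin. After thinning to 5000 UMIs, 90.9% of the 11 day 7 members that were deep enough had an Enpp2 UMI, against 12.9% of other Pdgfra cells, and 91.9% of 74 non-lesional members did, against 21.9%. Enpp2 thus stood above the other cells in both libraries at equal depth. Its level was 626 CPM in the Sox18-led members, against 63.4 in other day 7 cells. In non-lesional skin it was 829 in the Coch-led and 1600 in the Slc26a7-led members, against 159 in other cells. Over all members it was 7.56-fold higher than in other cells in non-lesional skin (7.15 to 7.98), with a log2 fold of 2.88, or 1.28 when the other cells were weighted to the members' depth.

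Slit2, a ligand, differed between the sets, while Robo2, a receptor of the same pathway, was high in each. Slit2 (chr5:47983138-48307733, plus strand) had 79.5 CPM in the Sox18-led members, against 44.3 in other day 7 cells. In non-lesional skin it had 512 CPM in the Coch-led members and 80.5 in the Slc26a7-led members, against 91.4 in other cells. Slit2 was therefore above the other non-lesional cells in the Coch-led set and not in the Slc26a7-led set. After thinning, 27.3% of day 7 members had a Slit2 UMI, against 19.8% of other cells, and 73.0% of non-lesional members did, against 28.1%. Robo2 (chr16:73891839-74411825, minus strand) was high in all 3 sets, with 136 CPM in the Sox18-led members, against 23.2 in other day 7 cells. It had 195 in the Coch-led and 110 in the Slc26a7-led members, against 34.7 in other non-lesional cells. Thinned shares of cells with a Robo2 UMI were 63.6% of day 7 members, against 10.4% of others, and 37 of 74 non-lesional members, against 11.5% of others.

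Lepr (chr4:101717404-101815352, plus strand) was seen in fewer of these cells. It was detected in 9 of 12 day 7 members and 43 of 90 non-lesional members, and in 8.41% of other Pdgfra cells at day 7 and 10.3% of those in non-lesional skin. Leukocytes had it in 0.610% of cells at day 7 and 0.267% in non-lesional skin. Its level was 88.8 CPM in the Sox18-led members, against 7.36 in other day 7 cells. It was 69.7 in the Coch-led and 174 in the Slc26a7-led members, against 24.5 in other non-lesional cells. All of Robo2, Enpp2, Slit2 and Lepr were found together in 8 of 12 day 7 members and in 23 of 90 non-lesional members.

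The 64 Coch-led members of non-lesional skin carried fibroblast matrix transcripts, with less of the main fibrillar collagens than other cells. Col1a1, the main chain of type I collagen, had 9183 CPM, against 39752 in other Pdgfra cells, Col1a2 11537, against 49288, and Col3a1 9570, against 23258. Dcn, which encodes the small proteoglycan decorin, had 10569 CPM, against 9483, and Lum, which encodes lumican, 1249, against 1388. Decorin and lumican transcripts thus stood near the level of other cells while those of type I collagen were lower. Cilp, a matrix protein of cartilage and connective tissue, had 692 CPM, against 171, and Cyp26b1, the enzyme that degrades retinoic acid, 1617, against 219. Fn1, which encodes fibronectin, had 57.7 CPM, against 1478.

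Among the 7635 genes compared between these 64 cells and the other non-lesional Pdgfra cells, 8.87% were higher by 2-fold or more and 5.82% lower by as much, with a median log2 fold of 0.24. Because the cluster was found in the same cells, these counts describe it and support nothing. Of 6 tendon and fascia genes, 4 were higher (Tnmd, Mkx, Fmod and Kera) and 2 lower; their median was 1.95. Tnmd, which encodes tenomodulin, had 411 CPM, against 97.3 in other cells. Fmod, which encodes the collagen-binding proteoglycan fibromodulin, had 500 CPM, against 6.42, but its 208 UMIs lay in 10 of the 64 cells with up to 65 in 1 cell. The Coch-led cell with most Coch (176 UMIs) held 63 of Fmod, and the next (97 UMIs) held 65. Neither had a Slit2 or Cilp UMI, while 54 of the 64 cells had one of Slit2 and 39 one of Cilp. The summed levels of this set thus mix unlike cells. Kera, which encodes keratocan, had 130 CPM, against 1.05, in 14 of the cells. No leukocyte of this library (0 of 375) had a Fmod or Kera UMI.

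Mesenchymal transcription factors were mixed, with 10 of 37 higher and 8 lower. Twist1, a basic helix-loop-helix factor, had 1160 CPM in the Coch-led members, against 404 in other cells, and the homeobox factor Meox2 had 79.3, against 13.1. Gas1, a hedgehog co-receptor, had 1281 CPM, against 331. Gldn, which encodes gliomedin, had 351, against 32.7, and the fibrillar collagen Col11a1 163, against 6.06. Of 15 WNT target genes tested, 4 were higher (Nkd1, Nkd2, Apcdd1 and Twist1) and 2 lower (Lef1 and Myc). Lef1, the transcription factor through which WNT signals act, was at 0 in all 64 cells, which allows up to 4.69% of cells with a UMI at a median depth of 6106 UMIs, and Wif1, a secreted WNT inhibitor, had 36.0 CPM, against 58.1. Of 7 secreted WNT antagonists tested beside Dkk2, 1 was higher (Apcdd1) and 4 lower (Sfrp1, Sfrp2, Sfrp4 and Sostdc1). Most of the antagonists measured beside Dkk2 were thus lower in these cells.

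Chemokine, complement and interstitial progenitor genes were mostly low in the Coch-led members. Of 10 chemokines, 9 were lower and 0 higher, with a median of -2.82. Ccl2, which attracts monocytes, had 190 CPM, against 1202 in other cells, and Cxcl1, which attracts neutrophils, 113, against 948. Of 11 complement genes 6 were lower, and C3, the central complement component, had 9.61 CPM, against 854. Of 13 genes of interstitial progenitors 9 were lower, although Pi16, a marker of those cells, was close to the others with 817 CPM, against 1020. Clec3b of the same list had 147, against 1057. The rule's limit on Dpp4 cut the non-lesional cells from 5087 to 2737 and left those removed among the other cells. A cluster of 1276 non-lesional cells with 3921 CPM of Pi16 held 0 members. Low progenitor genes in members are therefore not independent of the choice of cells. The interleukin-1 and NF-kB response list was mixed, with 2 of 20 higher (Irf1 and Cebpb), 8 lower and a median of -0.44. Irf1, an interferon and NF-kB responsive factor, had 875 CPM, against 339, Il1r1, the interleukin-1 receptor, 96.1, against 74.5, and Nfkbia, the feedback inhibitor of NF-kB, 2640, against 2007.

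Set against the 329 non-member cells of their own cluster, with a similar depth (median of 7591 UMIs), the Coch-led members differed less: 4.17% of 7479 genes were higher by 2-fold or more and 1.83% lower by as much, with a median of 0.18. Coch, which chose them, had 2513 CPM, against 133, and a Coch UMI was seen in 76 of the 329 cells. Enpp2 had 829 CPM, against 241, and was seen in 82.8% of members, against 56.5%. Crabp1, which binds retinoic acid in the cell, had 567 CPM, against 80.2, but 38 of the 64 members had no Crabp1 UMI and 5 cells held 62.3% of its UMIs. Cilp was alike with 692 CPM, against 709, and Slit2 had 512, against 376. Col1a1 was again lower, with 9183 CPM, against 30192. Of 5 tendon and fascia genes tested 3 were higher (Tnmd, Fmod and Kera). Dkk2, which also chose the members, had 754 CPM, against 277, and a non-member of the cluster had as many as 134 Coch UMIs.

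The 17 Slc26a7-led members carried little fibroblast matrix. Col1a1 had 199 CPM, against 39752 in other non-lesional Pdgfra cells, and Dcn 35.1, against 9483. In the leukocytes of that library 90.4% of cells had a Col1a1 UMI, at a level of 2643 CPM. Slc26a7, an anion exchanger, had 1521 CPM, against 89.0, Prlr, the prolactin receptor, 1363, against 126, and nonagouti (a), a secreted signal that switches the pigment made by melanocytes, 1110, against 73.4. Crabp1 had 3510 CPM, against 174, Igfbp3, an insulin-like growth factor binding protein, 2652, against 437, and Bmp4, a BMP ligand, 510, against 77.3. None of Slc26a7, Prlr or Lef1 had a UMI in the 64 Coch-led members.

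Over 7556 genes, 14.6% were higher by 2-fold or more and 12.2% lower by as much in the Slc26a7-led members, with a median of 0.25. Of 12 dermal papilla and dermal sheath genes tested, 11 were higher, with a median of 2.80, and Mylk was lower. Of 16 WNT target genes, 8 were higher (Lef1, Tcf7, Nkd1, Nkd2, Znrf3, Notum, Wif1 and Bambi) and 4 lower. Lef1 had 278 CPM, against 24.8 in other cells, and was seen in all 17 members, while 4.27% of leukocytes had a UMI. Wif1 had 671 CPM, against 58.1, and Notum, an enzyme that inactivates WNT proteins, 297, against 18.4. Of 43 matrix glycoproteins and proteoglycans 31 were lower, and all 13 interstitial progenitor genes were lower, with a median of -5.28. For the progenitor genes the rule's limit on Dpp4 again shaped which cells were the others.

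Among Coch, Dkk2 and Dpp4, the level of Dpp4 differed most between these 17 cells and the rest of their cluster. Dpp4, which the rule holds to at most 1 UMI, had 17.6 CPM, against 83.7 and a median of 3 UMIs in the other 108 cells. Coch had 103 CPM, against 74.2, with a median of 4 UMIs, against 2, and 85 of the other 108 cells also had a Coch UMI. Dkk2 had 681 CPM, against 744. Enpp2 had 1600 CPM, against 1300, and Lef1 278, against 322. Crabp1 had 3510 CPM, against 2219. Matrix transcripts were lower still, with 199 CPM of Col1a1, against 1600, and 35.1 of Dcn, against 326, while the median cell had 7 UMIs of Col1a1, against 8, and the highest 14, against 1114.

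At day 7 the 9 Sox18-led members were also poor in fibroblast matrix. Col1a1 had 407 CPM, against 24090 in other day 7 Pdgfra cells, with 6 to 19 UMIs in each cell, and Dcn 14.0, against 3749. In the leukocytes of that library 99.2% of cells had a Col1a1 UMI at a level of 1491 CPM, above that of the Sox18-led members. Sox18, a transcription factor, had 781 CPM, against 22.0, with 3 to 39 UMIs a cell. Corin, a membrane protease that marks the dermal papilla, had 514 CPM, against 14.8, with 0 to 37 UMIs, and Cd24a, a surface glycoprotein, 2978, against 65.2, with 30 to 146. Lef1 had 453 CPM, against 13.2, and was present in each of the 9 cells with 4 to 16 UMIs.

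WNT, BMP and hedgehog genes were among those high in these cells. Wnt5a had 1094 CPM in the Sox18-led members, against 122 in other day 7 cells. The R-spondins, which amplify WNT signals, were high, with 1472 CPM of Rspo3, against 61.0, and 729 of Rspo1, against 17.6. The ligands Bmp4, Bmp7 and Gdf10 had 912, 720 and 874 CPM, against 23.6, 15.1 and 29.2. Ptch1, the hedgehog receptor and a hedgehog target, had 940 CPM, against 51.0, and Gli1, a target and effector of that pathway, 234, against 12.5. Cyp26b1 had 2342 CPM, against 63.4. Over 8568 genes, 20.1% were higher by 2-fold or more and 13.2% lower by as much in the Sox18-led members, with a median of 0.34. Of 16 dermal papilla and sheath genes 14 were higher, with a median of 3.61.

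Within their own cluster these 9 cells had 276 CPM of Coch, which chose them, against 51.9 in the other 177 cells, of which 57 had a Coch UMI. Depth was unlike, with a median of 15469 UMIs in the 9 cells, against 6606 in the other 177. An absolute minimum of Coch UMIs is met more easily by deep cells. Enpp2 had 626 CPM, against 1252, and Wif1 617, against 1641. Enpp2 and Wif1 were thus not higher in the cells that met the rule than in the rest of their cluster.

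The 3 day 7 members outside the Sox18-led cluster were not alike. One, in the Coch-led cluster, had 3193 UMIs, the lowest depth of the 12. It had 2 UMIs of Lef1, 7 of Col1a1 and 6 of Dcn, and none of Sox18 or Cilp. The other two lay in the Lepr-led cluster with 328 and 1039 UMIs of Col1a1, 81 and 295 of Dcn, and 24 and 57 of Cilp, while neither had a Sox18 or Lef1 UMI. Together the 3 cells had 37417 CPM of Col1a1, 10403 of Dcn and 2206 of Cilp. Of Col1a1, 1367 UMIs lay in the 2 Lepr-led cells and 7 in the other.

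**Figure D3:**
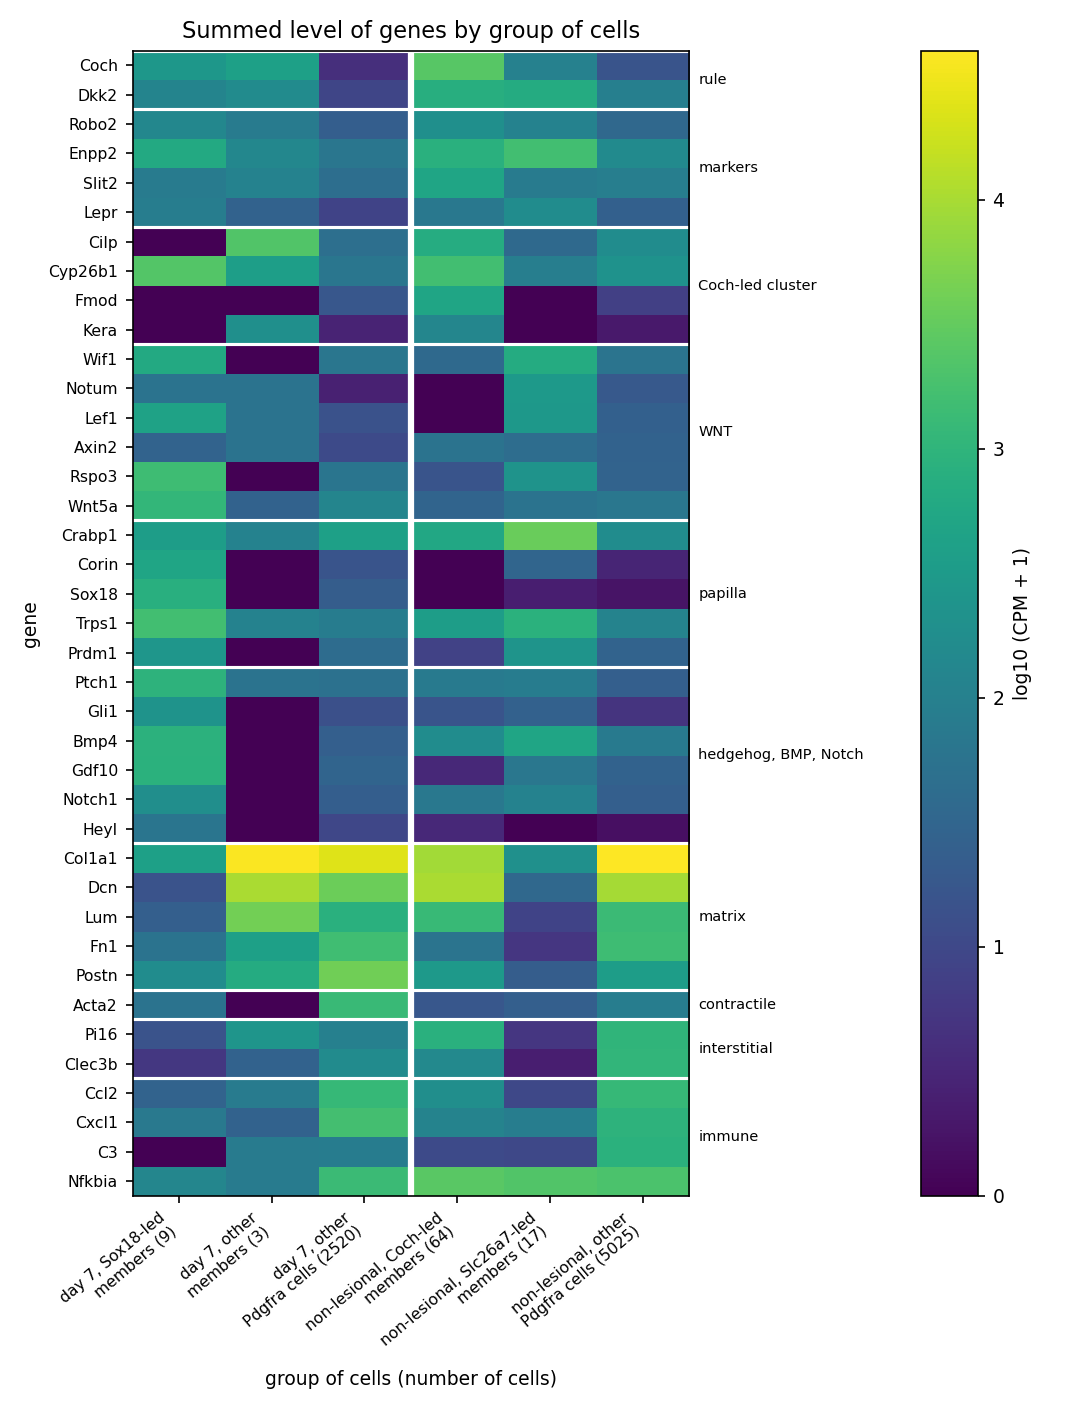
Levels of 39 genes, as log10(CPM + 1) in colour, in 6 groups of cells: from the left, the 9 Sox18-led members, the other 3 members and the other 2520 Pdgfra cells of day 7, then the 64 Coch-led members, the 17 Slc26a7-led members and the other 5025 Pdgfra cells of non-lesional skin. Collagen and proteoglycan genes are low in the Sox18-led and Slc26a7-led members, and Lef1 and Wif1 are high in both.

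Over all members of a library, summed without regard to cluster, 17.1% of 8550 genes were higher by 2-fold or more and 11.5% lower by as much than in other Pdgfra cells at day 7. In non-lesional skin 8.79% of 7709 genes were higher and 6.19% lower. The median log2 fold was 0.27 in each library. These sums follow mainly the Sox18-led and Slc26a7-led cells. The balance of higher and lower genes depended on scaling: 59.9% of the calls were higher at day 7 with totals as the scale and 31.3% with factors from the trimmed mean of M-values (TMM), where the median was -0.13. In non-lesional skin the shares were 58.7% and 28.7%, with a median of -0.05 under TMM. With the other cells weighted to the members' depth in non-lesional skin, 115 genes were higher in place of 678 and 409 lower in place of 477, while at day 7 the same weights gave 1380 higher in place of 1460 and 963 lower in place of 979. The deep non-lesional cells that this weighting uses include non-members of the Slc26a7-led cluster (108 cells, median of 39709 UMIs). Over all other non-lesional Pdgfra cells the median was 10137. Depth and cluster therefore cannot be told apart in the weighted values of non-lesional skin, here and below. With TMM or median-of-ratios factors, the lists of the following 3 paragraphs kept the sign of their medians.

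Dermal papilla and sheath genes were mostly higher in the members. In non-lesional skin most were not once other cells were weighted to the members' depth. That weighting does not separate depth there from the Slc26a7-led cluster. At day 7 the list had 14 of 16 genes above the 2-fold limit and 1 below it (median 3.44), and in non-lesional skin 9 of 10 above and 0 below (median 2.25). With these weights 14 of 16 were above at day 7 (median 3.04), and 2 of 12 in non-lesional skin (median 0.76). In the Coch-led members alone 6 of 9 were higher (Crabp1, Ptch1, Rspo4, Trps1, Itga8 and Mylk) and Lef1 was lower. Trps1, a zinc finger transcription factor, had 1617 CPM in the Sox18-led members, against 83.6 in other day 7 cells. It had 368 in the Coch-led and 848 in the Slc26a7-led members, against 115 in other non-lesional cells, so it was high in all 3 sets.

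WNT target genes leaned the same way, with 10 of 15 higher and 2 lower at day 7 (median 1.85) and 6 of 16 higher and 1 lower in non-lesional skin (median 0.73). Axin2, a general target of WNT signals, had 28.1 CPM in the Sox18-led members, against 9.85, with at most 2 UMIs in a cell. In non-lesional skin it had 55.3 in the Coch-led and 42.5 in the Slc26a7-led members, against 27.0. Leukocytes of non-lesional skin had 45.8 CPM of Axin2, with a UMI in 20.3% of cells. Of the Notch genes 7 of 9 were higher at day 7 and 3 of 5 in non-lesional skin. Notch1, a Notch receptor, had 187 CPM in the Sox18-led members, against 22.4 in other day 7 cells, and 69.7 and 107 in the Coch-led and Slc26a7-led members, against 23.6. Of the hedgehog genes 6 of 10 were higher at day 7 and 4 of 9 in non-lesional skin, with 1 lower in each; with TMM factors 4 of 10 were higher and 2 lower at day 7. With the depth weights, 0 of the 16 WNT target, 5 Notch and 9 hedgehog genes tested in non-lesional skin were higher, and 10 of 15, 7 of 9 and 5 of 10 were higher at day 7.

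Genes of the wound response were low in the day 7 members and mixed in those of non-lesional skin. At day 7, 20 of 24 myofibroblast and wound fibroblast genes were lower and 1 higher (median -2.91), 9 of 12 chemokines were lower and 1 higher (median -4.47), and 16 of 22 proliferation genes were lower and 0 higher (median -2.60). Acta2, the smooth muscle actin of myofibroblasts, had 56.1 CPM in the Sox18-led members, against 1313 in other day 7 cells, and Postn, which encodes periostin, 168, against 4029. In non-lesional skin 8 of 18 myofibroblast and wound fibroblast genes were higher and 7 lower (median 0.51), and 4 of 6 proliferation genes were higher and 0 lower; with other cells weighted to the members' depth these became 3 of 21 higher and 4 lower, and 0 of 10 higher and 1 lower. There 8 of 10 chemokines and all 13 interstitial progenitor genes tested were lower, the same numbers as with the depth weights. Under either weighting the limit on Dpp4 left cells with more Dpp4 among the others, so the progenitor count is not independent of the rule. Matrix glycoproteins and proteoglycans were lower in 27 of 46 at day 7 and 19 of 45 in non-lesional skin. In the Coch-led members alone 10 of 46 matrix genes were lower and 9 higher, and in the Slc26a7-led members alone 31 of 43 were lower and 3 higher.

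**Figure D4:**
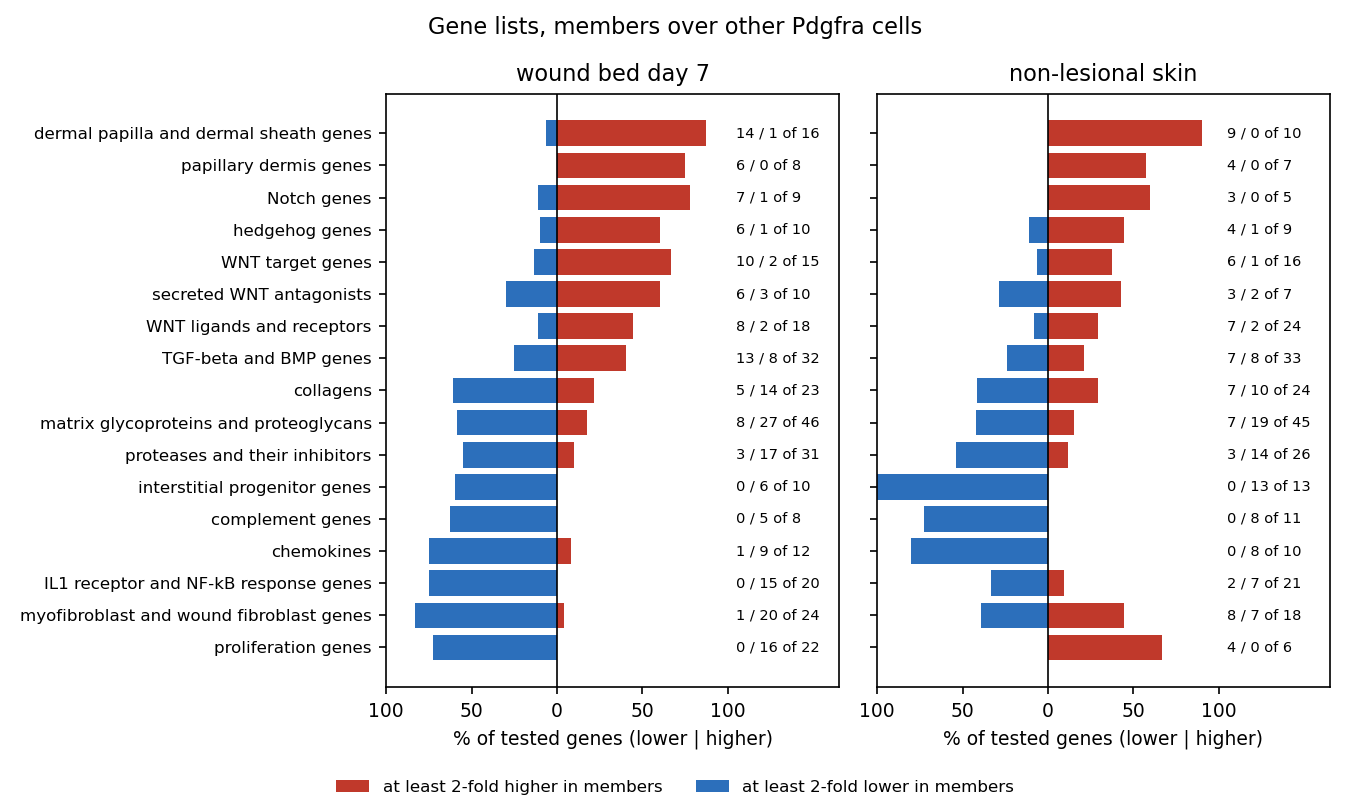
Percent of the tested genes of each list that were at least 2-fold higher or lower in members than in other Pdgfra cells of the same library, with day 7 on the left and non-lesional skin on the right. Dermal papilla and sheath genes stand out as higher in both libraries (14 of 16 and 9 of 10, or 14 of 16 and 2 of 12 with other cells weighted to the members' depth) and chemokines as lower (9 of 12 and 8 of 10).

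Of the 7108 genes tested in both libraries, 258 were higher in members in both. They made up 25.2% of the 1022 genes higher at day 7 and 43.2% of the 597 higher in non-lesional skin. Among genes lower in members, 220 were shared, or 27.7% of 795 at day 7 and 62.2% of 354 in non-lesional skin. A further 39 genes were lower in day 7 members and higher in non-lesional members, and 13 were higher in day 7 members and lower in non-lesional members. Over all 7108 genes, 14.4% were higher and 11.2% lower at day 7, and 8.40% higher and 4.98% lower in non-lesional skin. The comparisons of the 2 libraries use different control cells.

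Between day 7 members and non-lesional members, 20.7% of 8381 genes were higher by 2-fold or more and 12.4% lower by as much at day 7, with a median of 0.27. With TMM factors 34.7% of the calls were higher in place of 62.5%, and the median was -0.12. This contrast set mostly Sox18-led cells against mostly Slc26a7-led and Coch-led cells, and wound and cluster cannot be told apart in it. Sox18 had 167 UMIs in the 12 day 7 members and 1 in the 90 non-lesional members. Cd24a was 26.0-fold higher (21.3 to 31.8) and Wnt5a 22.0-fold higher (16.3 to 30.3) in day 7 members. Mdk, which encodes the growth factor midkine, was 20.6-fold higher (16.3 to 26.3).

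Genes of the interleukin-1 and NF-kB response were low in day 7 members relative to non-lesional members. Of 18 tested, 14 were lower and 1 higher, with a median of -2.59. Nfkbia had 30 UMIs in day 7 members and 2936 in non-lesional members, with a log2 fold of -4.24, and Irf1 2 UMIs and 466 (log2 fold -4.87). Of these 466, 364 lay in the Coch-led members, and the Slc26a7-led members had 98.1 CPM of Irf1. Both genes were seen in fewer day 7 members, Nfkbia in 75.0%, against 98.9%, and Irf1 in 16.7%, against 90.0%. Between the Sox18-led and the Slc26a7-led members, which were both high in the dermal papilla list, 14 of 16 of these genes were lower and 1 higher, while 28.2% of all 8118 genes compared were higher and 12.7% lower (median 0.40). Tnfaip6, an inflammation-induced hyaluronan-binding protein, had 88.8 CPM in the Sox18-led members, 1184 in the Coch-led and 1899 in the Slc26a7-led members. Other day 7 cells had 634 CPM of it and other non-lesional cells 1706, so a difference in the same direction was present outside the members. Over the whole list, other day 7 cells had 8 of 21 genes lower and 3 higher than other non-lesional cells, with a median of -0.49.

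Immediate early genes moved with these. Day 7 members had 13 of the 22 genes of the immediate early and heat shock list lower than non-lesional members and 0 higher (median -1.23). Their part in the difference of NF-kB response genes was not tested. Genes of oxidative phosphorylation were higher in 8 and lower in 0 of 23 (median 0.85), or higher in 3 with TMM factors, and of 13 genes of the insulin-like growth factor axis 6 were lower and 1 higher. Of the defining genes that the rule did not use, Enpp2 and Slit2 were at least 2-fold lower in day 7 members, and Robo2 and Lepr were not. Between the Sox18-led and the Slc26a7-led members alone, Slit2 was alike, with 79.5 and 80.5 CPM, while Enpp2 had 626 and 1600.

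Marker sums of other cell types differed from list to list. The 5 red blood cell markers summed to 59.8 CPM in day 7 members, against 1084 in other cells there, and to 4196 CPM in non-lesional members, against 642. Of the 5229 UMIs behind the non-lesional value, 5205 lay in 1 Slc26a7-led cell. The 10 keratinocyte markers summed to 67.8 CPM in day 7 members with 7 of the 10 at 0, against 124 in other cells, and to 771 CPM in non-lesional members, against 1650. Here 59.8% of the 961 UMIs lay in 1 cell. Non-lesional members outside the Coch-led and Slc26a7-led clusters, the keratin-led ones included, held 752 of the 961, at 5119 CPM. In the Coch-led members the keratinocyte markers summed to 216 CPM and the red blood cell markers to 28.8. Blood endothelial markers summed to 79.5 CPM in the Sox18-led members (17 UMIs), against 38.7 in other day 7 cells, with 6 of 8 at 0, among them the defining Pecam1 and Cdh5. Lymphatic endothelial markers summed to 209 CPM in the Coch-led members, against 189 in other non-lesional cells, with 4 of 6 at 0, among them Lyve1 and Flt4. Of the 5 T cell markers in the files, 4 were at 0 in day 7 members and 5 in non-lesional members. The part of these markers in the members' other values was not tested.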

How the data were processed

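Per the labels, dissociated skin cells were profiled with a droplet-based 3' single-cell kit. The values deposited by the authors are raw UMI counts for each gene in each barcode. Per the file headers the tables were written by Cell Ranger 5.0.0, while the submitters' processing notes name Cell Ranger 3.0.2, Seurat 3.0 and mm10; this difference was not resolved. Cells with at least 200 genes and at most 10% mitochondrial UMIs were kept. The members and all gene lists were chosen with earlier results of these data known.

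UMIs were summed per group and scaled to CPM. Folds are on the log2(CPM + 5) scale, so they understate changes of low genes. Genes with a mean of at least 10 CPM over both groups were compared, without the 5 genes of the rule, and a gene was counted as higher or lower at 2-fold or more. With 1 library per group no test was made. Shares have exact Clopper-Pearson, levels exact Poisson and ratios conditional binomial 95% intervals. Day 7 holds 12 members, under the minimum of 50 set for a comparison with other cells, and its values are a description. The 12 genes with the largest folds in each direction, at 50 CPM or more in 20% or more of cells and not mainly from another cell class, list genes (at most 4 per list) and the defining genes were listed; genes of the clusters were named after their values were seen.

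The 11716 Pdgfra cells were clustered (2000 variable genes without those of the rule, 30 principal components, 20 neighbours, Leiden resolution 1, 25 clusters). Doublets were scored with Scrublet and, as an alternative, the top 0.8% per 1000 cells was removed, with 3 non-lesional and 0 day 7 members; the score's own threshold marked 373, 1 and 0 cells. The fold step was also run on simulated Poisson counts with known folds. These held no variation between cells and no mixed clusters, so the run concerns the arithmetic only. Tools were Python 3.11.15, numpy 2.4.6, scipy 1.17.1, scanpy 1.11.5, leidenalg 0.10.2, R 4.3.3 and edgeR 4.0.16 (TMM factors only). Positions are 1-based.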

Additional observations from a re-analysis of the deposited data

Results flagged for a closer look

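Some genes were at least 2-fold higher in members than in other Pdgfra cells in 1 library and at least 2-fold lower in the other. The difference between the libraries was not tested. Tnn, which encodes tenascin N, had a log2 fold of -5.4 at day 7 and 2.37 in non-lesional skin, and the related Tnc, tenascin C, -5.36 and 1.47. Col12a1, a fibril-associated collagen, had -5.03 at day 7 and 1.64 in non-lesional skin. The growth factor gene Ptn had -2.51 at day 7 and 2.14 in non-lesional skin, where all its member UMIs lay outside the Coch-led and Slc26a7-led clusters. The transcription factor Sox9 had -1.87 at day 7 and 1.04 in non-lesional skin.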

How the results depend on the processing

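No paired analysis was possible because each group is 1 library. The choice of cells set most values. With a minimum of 2 Coch UMIs the members' share was 0.829% at day 7 and 2.33% in non-lesional skin, with 5 it was 0.237% and 0.997%, after thinning to 5000 UMIs 0.0718% and 1.18%, and with Dpp4 and Ptprc at 0 it was 0.237% at day 7. Counts of higher and lower genes between day 7 and non-lesional members were 898 and 1689 with TMM factors, 942 and 1631 with median-of-ratios factors, 787 and 646 with a pseudocount of 20 CPM, and 587 and 430 at a mean of 50 CPM. For members over others at day 7 the same settings gave 713 and 1564, 745 and 1512, 671 and 644, and 525 and 375, and 1563 genes were lower over all genes with a UMI. In non-lesional skin they gave 305 and 758, 317 and 743, 281 and 313, and 269 and 229. There 115 genes were higher with other cells weighted to the members' depth, where 22.0% of calls were higher, and the Slc26a7-led members alone gave 1103 and 921. Scaling reversed none of the named genes. The subsets by cluster were chosen after seeing the data.

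Reversals came with other sets of cells. Between day 7 and non-lesional members, Notum (0.89) and Etv1 (0.38) reversed with every cell equal, Tagln (0.34) and Sox9 (0.57) at 2 Coch UMIs, and between Sox18-led and Slc26a7-led cells Ogn (0.95), Ccl7 (0.81), Pi16 (1.02), Clec3b (0.58), Mkx, Nfib and Cadm3 (0.29 each). At day 7, Aldh1a2 reversed at 5 Coch UMIs (-0.19) and in Sox18-led cells (-0.18), Kera in Sox18-led cells (-0.47) and Thbs4 at 2 Coch UMIs (1.59). In non-lesional skin the Coch-led members alone reversed a (-1.70), Ifitm1 (-0.090), Wif1 (-0.62), Col23a1 (-1.57), Inhba (-0.47), Notum (-2.23), Wnt6 (-0.043), Rspo3 (-0.78), Lef1 (-2.58), Pappa2 (-2.47), Ptn (-1.09), Hhip (-0.85), Crabp2 (-0.53), Apoe (-0.84), Col13a1 (-0.23), Prdm1 (-1.42), Sox9 (-1.37) and Ncam2 (-2.29). The Slc26a7-led members alone reversed Ptn (-1.09), Fmod (-1.19), Kera (-0.27) and Slit2 (-0.17), and thinning Notum (-0.24), Ptn (-0.45), Mdk (-0.53), Hhip (-0.51), Apoe (-0.10) and Prdm1 (-2.04). These values are log2 folds, and the cause was not tested. Thinned day 7 cells, with fewer than 5 members, gave no levels.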
